A study of Egretta garzetta and Nycticorax nycticorax with 12 samples.

Results

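The OR14 genes of *N. nycticorax*, the black-crowned night heron, are described here in the olfactory epithelium (OE) of 6 birds. They are the 46 genes that a supplementary table of the study assigns to subfamily OR14, out of 61 olfactory receptor (OR) genes listed there for this species and 13361 genes quantified per bird. All 46 were found in the deposited files by their identifiers. The table writes Partial for 12 of them, called partial here. For the other 34 it gives a transcript length, and these are called intact here. The table lists only OR genes for which expression was reported, so detection in some bird was a condition for being a member, and OR14 genes outside the list were not analysed here. No threshold on level beyond that detection, and no difference between stages, was used here to choose members. Being listed could still rest on a single bird, since 5 members were detected in nestling 3 alone.

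ORs are G protein-coupled receptors on the cilia of olfactory sensory neurons, and in mammals each mature neuron usually expresses a single OR gene. The coding region of an OR gene usually lies in 1 uninterrupted exon, and the genes tend to lie in tandem clusters. OR14 belongs to the class II receptors and is the subfamily that expanded in birds, where its members are close in sequence within a species. Reads from one copy can therefore be placed on another, and the value of any single OR14 gene is uncertain to that extent, which was not tested.

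The series holds 12 birds, of which 6 are *N. nycticorax* and the others *E. garzetta*, the little egret, which shares no gene identifiers with the night heron and is not treated further. OE tissue was taken from 3 nestlings (birds 1, 2 and 3) and 3 adults (birds 4, 5 and 6), wild-caught and untreated, each a library of its own. Nestlings were small birds from different nests and adults were birds in breeding plumage from another location, so stage and location cannot be told apart. Values are TPM, transcripts per 1000000 over the annotated transcripts of a bird, and a gene above 0 TPM in a bird was called detected there. Read equivalents, the coverage of a gene times its coding length divided by the read length of 150 bp, give the approximate number of reads behind a value. A read that lies only partly on the gene model counts as less than 1.

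Across the 6 birds 10530972 to 13169583 read equivalents lay on annotated genes, and 92.3% to 94.6% of genes were above 0. Nestling 2 stood apart in the median TPM of genes above 0, which was 9.31 there and 20.7 to 27.1 in the other 5 birds. A count of 3 read equivalents corresponded to 0.182 to 0.321 TPM for a gene model of 858 bp, the commonest length among the OR14 genes, and to 0.547 to 0.967 TPM for a model of 285 bp. Of the 115 values above 0 that the members had over the 6 birds, 80 rested on at least 3 read equivalents. These limits cover counting error only.

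CNGB1, a subunit of the cyclic nucleotide-gated channel of olfactory neurons, was present in all 6 birds at 3.01, 1.96 and 8.12 TPM in nestlings 1, 2 and 3 and at 4.88, 3.56 and 4.67 TPM in adults 4, 5 and 6. The stages overlapped for this marker, and its lowest level was in nestling 2, where 40 OR14 genes were detected. SLC24A4, an exchanger that removes calcium from olfactory neurons in mice, was at 0 in nestling 2 and at 0.489 to 1.28 TPM in the other birds. All 13 cilia genes examined were above 0 in every bird. Their summed level was 686, 431 and 348 TPM in nestlings 1, 2 and 3 and 395 to 538 TPM in adults. As deposited, this sum was highest in nestling 1, the nestling with the fewest OR14 genes. Single genes did not all follow the sum: BBS7, TTC8, WDR19, NPHP4 and RPGR were higher in adult 6 than in nestling 1, and the other cilia genes lower. Whether the cilia genes mark olfactory neurons in this tissue was not tested. The marker levels given here were not rescaled for the lower median TPM of nestling 2, 9.31 against 20.7 to 27.1 in the other birds. The rank of nestling 2 for each marker or list therefore holds for TPM as deposited only. SOX2, a gene of supporting and basal cells, was at 221, 65.1 and 114 TPM in nestlings 1, 2 and 3 and at 182.5 to 225 TPM in adults, and so was lowest in nestlings 2 and 3. PAX6, the other gene of that list, was at 5.28, 2.40 and 18.5 TPM in the nestlings and at 4.01 to 5.498 TPM in adults. The 4 connective tissue markers COL1A1, LUM, PDGFRA and PDGFRB summed to 963 to 22275 TPM in nestlings and 4316 to 12964 TPM in adults, lowest in nestling 1 and highest in nestling 3, and nearly all of it was COL1A1, at 21869 TPM in nestling 3. PDGFRA and PDGFRB were instead lowest in nestling 2, at 1.02 and 0.883 TPM, and with LUM highest in adult 5. Photoreceptor and pigment epithelium genes summed to 1.28 to 1.44 TPM in nestlings and 1.08 to 2.01 TPM in adults, and the rod transducin gene GNAT1 was at 0 in 4 birds. The part of tissue composition in the OR14 values was not tested, and in whole tissue fewer neurons and less RNA per neuron cannot be told apart.

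The OR14 genes were detected in large numbers in 2 nestlings and in few elsewhere. Nestlings 1, 2 and 3 had 3, 40 and 46 of the 46 genes above 0, and adults 4, 5 and 6 had 3, 6 and 17. Nestling 1 thus had as few as adult 4, and the stages overlapped, at 29.7 ± 23.3 genes per nestling and 8.67 ± 7.37 genes per adult (SD, n = 3 each). With at least 2 read equivalents required, the amount that 1 read pair gives when it lies wholly on the model, nestlings 1, 2 and 3 kept 2, 34 and 43 genes. Adults 4, 5 and 6 kept 2, 3 and 8. In adult 6, 9 of the 17 detected genes were therefore below 2 read equivalents, against 3 of 46 in nestling 3.

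Levels followed the same division between birds and are likewise a description only, since the listed genes were all reported as detected in nestlings. The summed level of the 46 genes was 2.33, 24.4 and 57.4 TPM in nestlings 1, 2 and 3, and 1.53, 5.19 and 10.5 TPM in adults 4, 5 and 6. Nestlings 2 and 3 were above every adult and nestling 1 lay between adults 4 and 5. In reads these sums were 20.5, 265 and 524 read equivalents in the nestlings and 12.98, 46.4 and 78.0 in the adults. The mean over the 46 genes was 0.609 ± 0.602 TPM in nestlings and 0.125 ± 0.0985 TPM in adults (SD, n = 3 each), a difference of 0.484 TPM that was smaller than the spread between nestlings and fell to 0.165 without nestling 3.

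**Figure D1:**
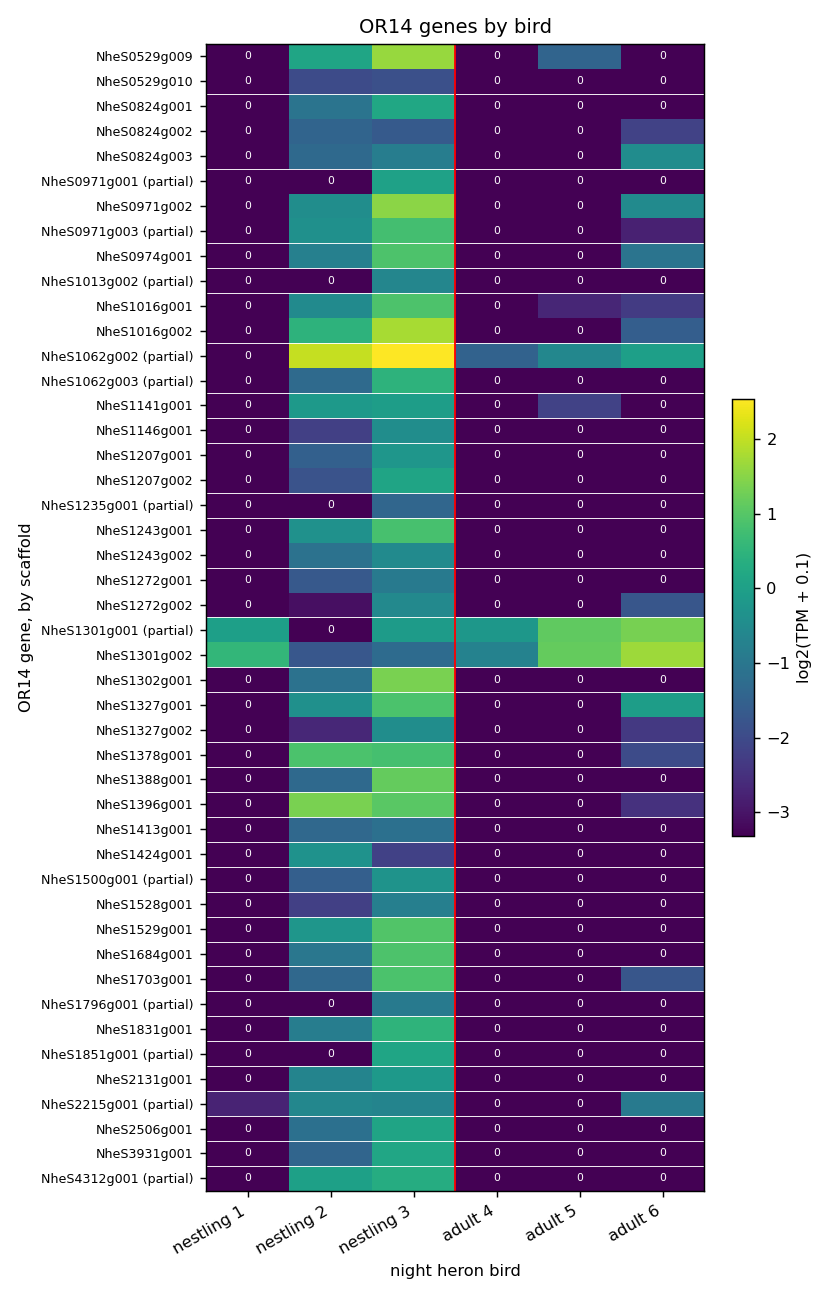
Level of each of the 46 OR14 genes (rows, in order of scaffold, with white lines between scaffolds) in each of the 6 night herons (columns; nestlings left and adults right of the red line), as log2(TPM + 0.1) by colour, with 0 written where a gene was not detected. Nestlings 2 and 3 hold 40 and 46 detected genes, while nestling 1 and adult 4 hold 3 each. The listed genes were all reported as detected in nestlings, so the contrast is a description only.

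Over the 6 birds the mean level of an OR14 gene ranged from 0.0475 TPM (NheS1235g001) to 1.90 TPM (NheS1062g002), with a median of 0.248 TPM, against a median of 21.8 TPM over the 13099 genes above 0 in some bird. A mean of at least 1 TPM was reached by 3 members. TPM and reads ranked the members differently, because the gene models differ in length. NheS1301g002, with a model of 930 bp, had the most reads, 83.2 read equivalents over the 6 birds, and NheS1016g002, with 909 bp, had 67.0. NheS1062g002, first by mean TPM with a model of 285 bp, ranked 5 by reads with 50.2.

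A pair of genes on scaffold 1301 had the higher stage mean in adults, and the other 44 genes in nestlings. Among the adults the pair and the other genes had the same order, with adult 6 highest and adult 4 lowest. NheS1301g001 (10088 to 10744, plus strand, 657 bp, a partial gene) and NheS1301g002 (14547 to 15476, plus strand, 930 bp, an intact gene) each have 1 exon, lie 3802 bp apart on the same strand and are the only genes annotated on that scaffold. NheS1301g001 was at 0.898, 0 and 0.834 TPM in nestlings 1, 2 and 3 and at 0.765, 2.05 and 2.43 TPM in adults 4, 5 and 6. NheS1301g002 was at 1.38, 0.200 and 0.312 TPM in the nestlings and at 0.507, 2.14 and 3.10 TPM in the adults. For NheS1301g001 adult 4 lay below nestlings 1 and 3, and for NheS1301g002 adult 4 lay below nestling 1, so the stages overlapped for both genes. Adults 5 and 6 were higher than every nestling for both genes, with 16.2 and 17.6 read equivalents for NheS1301g001 and 24.0 and 31.7 for NheS1301g002.

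The pair were the only members whose adult mean was above the nestling mean. The nestling mean was the higher one for 44 of the 46 genes, against 31.8% of all genes tested, and the adult mean for the other 2, against 68.2%. Nothing is read from these shares. Of the 46 genes, 27 were detected in nestlings 2 and 3 or in nestling 3 alone, and could be listed as expressed only through those birds. In limma, which fitted all genes together on log2(TPM + 0.1), the log2 fold change of nestlings over adults was -1.89 (SE 1.05) for NheS1301g001 and -1.52 (SE 0.95) for NheS1301g002. Neither passed the test, with a Benjamini-Hochberg adjusted p of 0.573 for each.

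The pair made up 97.9% of the summed OR14 TPM in nestling 1, 83.0% in adult 4, 80.8% in adult 5 and 52.4% in adult 6. In nestlings 2 and 3 it made up 0.820% and 2.00%. Without the pair, the other 44 genes summed to 0.0499, 24.2 and 56.2 TPM in nestlings 1, 2 and 3 and to 0.261, 0.998 and 5.02 TPM in adults 4, 5 and 6. In nestling 1 and adult 4 that remainder was a single gene with under 1 read equivalent in each bird, NheS2215g001 with 0.153 in nestling 1 and NheS1062g002 with 0.920 in adult 4.

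**Figure D2:**
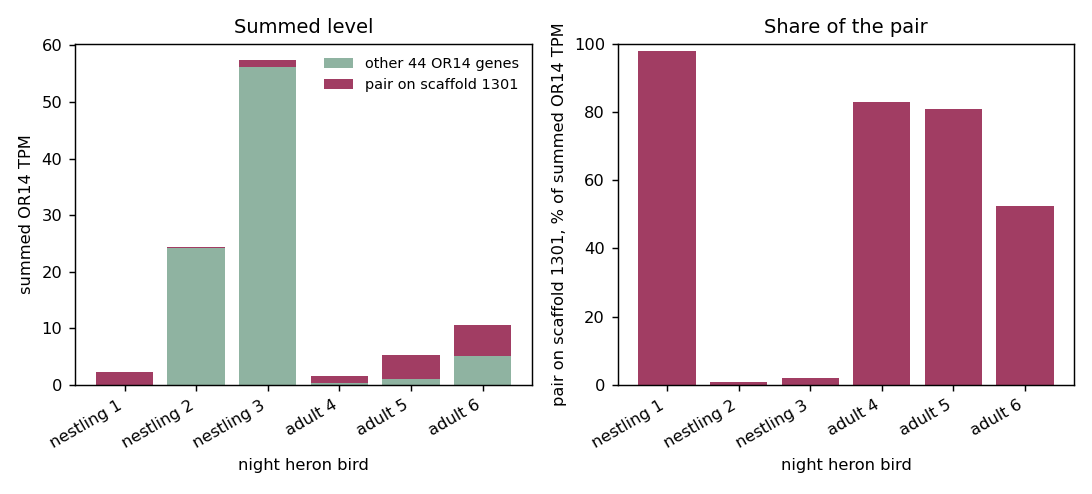
Left, summed TPM of the 46 OR14 genes in each night heron, with the pair on scaffold 1301 stacked on the other 44 genes; right, the share of the pair in that sum, in percent. The sum is highest in nestling 3 at 57.4 TPM, where the pair makes up 2.00%, and the pair makes up 97.9% of 2.33 TPM in nestling 1.

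The remaining 44 genes fell into few detection patterns. Detection in nestlings 2 and 3 and in no other bird held for 22 genes, of which 19 are intact, against 0.458% of the 13099 genes above 0 in some bird. Listing required detection somewhere, so this share is a description only. Their median was 0.329 TPM in nestling 2 and 0.977 TPM in nestling 3, or 4.56 and 7.78 read equivalents. A further 12 genes, 11 of them intact, were detected in nestlings 2 and 3 and adult 6, with medians of 0.563, 1.70 and 0.196 TPM in that order. In adult 6 these 12 genes had a median of 1.55 read equivalents and at most 6.18.

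Detection in nestling 3 alone held for 5 genes, all of them partial. NheS0971g001 was at 0.930 TPM there, NheS1013g002 at 0.546, NheS1235g001 at 0.285, NheS1796g001 at 0.431 and NheS1851g001 at 0.988 TPM. Between 1.14 (NheS1235g001) and 11.9 (NheS1851g001) read equivalents stood behind these values. NheS1235g001 and NheS1796g001, the latter with 2.01, lay below 3 read equivalents, and for them a difference from the other birds was not detectable at this depth. The share of all genes detected in nestling 3 alone was not computed, so the count of 5 is a description only.

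The last 5 genes had patterns of their own and are named for that reason, after their values were seen. NheS0529g009 and NheS1141g001 were detected in nestlings 2 and 3 and adult 5, NheS1016g001 also in adult 6, and NheS2215g001 in the 3 nestlings and adult 6. NheS1062g002, the highest OR14 gene in nestlings 2 and 3, was at 0, 3.96 and 5.73 TPM in nestlings 1, 2 and 3 and at 0.261, 0.552 and 0.886 TPM in adults 4, 5 and 6. Nestlings 2 and 3 were far above the adults for this gene. In nestling 1, 3 read equivalents on its model of 285 bp correspond to 0.967 TPM, more than any adult value. Its 0 there could therefore not be told apart from the adult levels. The adult values rested on 0.920, 1.89 and 2.78 read equivalents, and the log2 fold change of 1.12 (SE 1.52) did not pass the limma test (adjusted p = 0.724).

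Nestlings 2 and 3 shared 40 detected OR14 genes but not at the same levels. The level was higher in nestling 3 for 41 of the 46 genes, and the ratio of nestling 3 to nestling 2 had a median of 2.69 over the 40 shared genes, from 0.174 to 31.1. Over the 12144 genes of the transcriptome above 0 in both birds the median ratio was 1.96, with 76.2% higher in nestling 3, and over 12 other listed OR genes it was 4.06. The 5 genes that were higher in nestling 2, named after their values were seen, were NheS0824g002, NheS1378g001, NheS1396g001, NheS1424g001 and NheS2215g001. NheS1396g001 (285 bp) was the strongest of them, at 2.49 TPM in nestling 2 and 1.96 TPM in nestling 3, with 0.0786 TPM in adult 6 and 0 in the other birds. NheS1424g001 differed most, with 3.78 read equivalents in nestling 2 and 0.480 in nestling 3.

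No OR14 gene was called between stages. All 46 passed the filter of a mean of at least 0.02 TPM, and 0 of the 46 had an adjusted p below 0.05 in limma, against 0% of the 13042 genes tested. At an unadjusted p below 0.05, 0 members were higher and 0 lower in nestlings, against 1.07% and 6.02% of all genes. The members higher at that level numbered 2 with a pseudocount of 1 TPM, against 1.28% of all genes, 3 after rescaling, against 3.44%, and 1 with no filter, against 1.09%. The fitted log2 fold change was above 0 for 44 members, against 27.7% of all genes, and its median was 1.61 over the members and -0.45 over all genes. Both contrasts with all genes are descriptions only, since 27 members could be listed as expressed only through nestlings 2 and 3. The members' median depended on the pseudocount, at 3.30 with 0.01 TPM and 0.44 with 1 TPM, and was 0.96 without nestling 3 and 2.54 without nestling 1. After each bird was rescaled by its median ratio to the other birds, the median of all genes moved to -0.025 and that of the members to 1.84.

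The 5 members with the smallest p all had an adjusted p of 0.573 (limma, Benjamini-Hochberg). NheS4312g001 (partial, 285 bp) was at 0, 0.912 and 1.14 TPM in nestlings 1, 2 and 3 and at 0 in every adult. NheS1529g001 (858 bp) was at 0, 0.747 and 1.85 TPM, NheS1243g001 (858 bp) at 0, 0.682 and 1.70 TPM and NheS2131g001 (855 bp) at 0, 0.531 and 0.793 TPM in the nestlings, and all 3 were at 0 in every adult. With NheS1396g001 the fitted log2 fold changes of these 5 genes ran from 1.94 (SE 0.88, NheS2131g001) to 2.74 (SE 1.25, NheS1396g001). For each of the 5, nestling 1 was at 0 and nestlings 2 and 3 were above every adult.

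No OR14 gene had every nestling above every adult, against 3.86% of all genes, and none had every adult above every nestling, against 15.9%. Nestling 1 alone set the first of these counts. Without it, an alternative added after its values were seen, 35 of the 46 genes were higher in nestlings 2 and 3 than in every adult, against 8.58% of all genes. This count is a description only, since nestling 1 was removed for its values and 27 of the members were detected in nestlings 2 and 3 or in nestling 3 alone, so that being listed as expressed rested on those birds. The same holds for the 32 members higher in nestlings at an unadjusted p below 0.05 in limma in that setting, against 2.84% of all genes, of which none passed after adjustment (smallest adjusted p = 0.170).

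In all 3 adults 27 of the 46 genes were at 0, against 1.76% of the genes above 0 in some bird, most of which had far higher levels. Nothing is read from this share, since these 27 genes could be listed as expressed only through nestlings 2 and 3. For these genes the fold is only a lower bound, set against 3 read equivalents over the 3 adults together, or 0.0908 to 0.3003 TPM according to the length of the gene. The largest bounds were those of NheS1302g001, with a nestling mean at least 9.56-fold this floor, NheS1529g001 (8.76-fold), NheS1388g001 (8.22-fold) and NheS1243g001 (8.04-fold). All 27 genes were also at 0 in nestling 1, and the bound leaves out the spread between nestlings. NheS1302g001 was at 0, 0.366 and 2.47 TPM in nestlings 1, 2 and 3. The median bound over the 27 genes was 2.47, and for 4 genes it was below 1, so no difference was detectable at this depth. The median log2 ratio of the stage means over the 46 genes was 1.99 with these genes at their bound.

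The gene models of the OR14 members were of a few recurrent kinds. A single exon made up 26 of them and 2 exons the other 20, and the coding length was a multiple of 3 in all 46. The shortest models, of 282 bp, were NheS0971g002, NheS1207g002 and NheS2215g001, and the longest, of 933 bp, was NheS1013g002. Below 300 bp lay 10 models, all but 3 of them 285 bp long, while 15 models had 855 or 858 bp. The study's table marks 12 members as Partial and gives a transcript length for the other 34, which are called intact only here. The study itself required a start codon, a stop codon and more than 650 bp of an intact OR gene. The lengths in the files did not follow the division used here, since 10 genes called intact had models below 650 bp. Another 5 genes, called partial, had models of 650 bp or more.

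The order of intact and partial genes in level depended on how it was summarised, and their detection differed by bird. Nestling 2 was the bird in which detection differed most between them, with 34 of 34 intact and 6 of 12 partial genes above 0. Intact genes were detected in 1, 34 and 34 cases in nestlings 1, 2 and 3 and in 1, 4 and 13 cases in adults 4, 5 and 6, and partial genes in 2, 6 and 12 and in 2, 2 and 4 cases. The mean over the 6 birds was 0.349 TPM for the intact and 0.417 TPM for the partial genes, while the medians, 0.264 and 0.213 TPM, had the opposite order. Without NheS1062g002, a partial gene, the mean of the intact genes was the higher one by 0.067 TPM. The transcript lengths in the table may come from these same libraries, so the division into intact and partial genes is not shown to be independent of expression.

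**Figure D3:**
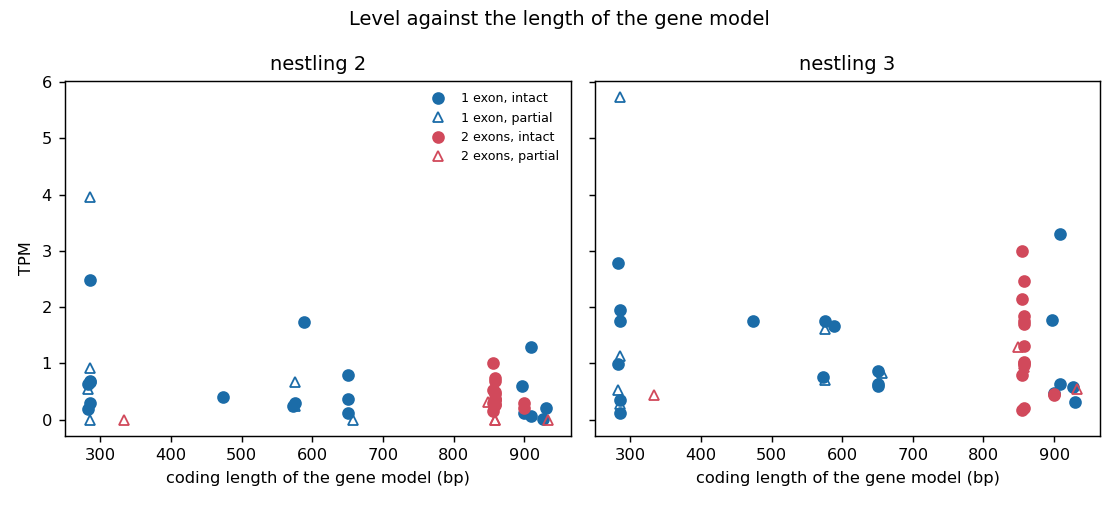
TPM of each OR14 gene in nestling 2 (left) and nestling 3 (right) against the coding length of its gene model in bp; colour gives the number of exons, filled circles are intact and open triangles partial genes. The highest point in both birds is NheS1062g002, a model of 285 bp at 3.96 and 5.73 TPM.

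Of the 20 models with 2 exons, 15 had a gap of 33 to 39 bp between the exons: 33 bp in 10 genes, 36 bp in 4 and 39 bp in 1. With the gap included 14 of these 15 models spanned 891 bp, most often as a 5′ exon of 288 bp and a 3′ exon of 570 bp. The other 5 had gaps above 1000 bp. The longest belonged to NheS0824g003 (18632 bp) and NheS1272g001 (17661 bp), followed by NheS1013g002 (17194 bp), NheS1062g003 (13532 bp) and NheS0971g001 (1132 bp).

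The exons of the models with short gaps were mostly covered together in nestlings 2 and 3. A read of 150 bp is longer than a gap of 33 to 39 bp and can touch both exons. Joint coverage therefore does not test whether these gaps are introns. In nestling 3 all 15 had reads on both exons, with a mean coverage of 3.72 reads per base on the 5′ and 2.21 on the 3′ exon, and the 5′ exon was the higher one in 9 of them. In nestling 2, 12 of the 13 covered models had reads on both exons. Averaged over all 15 models, those without reads included, coverage there was 1.44 reads per base on the 5′ and 0.966 on the 3′ exon. NheS0529g009 was the most uneven, with 14.4 reads per base on its 5′ exon and 1.11 on its 3′ exon in nestling 3 and 5.94 and 0.907 in nestling 2. Its level in TPM, the highest among the 2-exon genes in nestling 3 at 3.00, therefore rested mainly on 336 of its 855 bp.

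Of the 5 models with long gaps, 2 had reads on both exons in nestling 3, NheS0824g003 at 1.03 and 0.925 reads per base and NheS0971g001 at 2.19 and 1.84. NheS1013g002 had 3.59 reads per base on the 5′ exon and 0 on the 3′ exon, and NheS1272g001 had 1.90 and 0. NheS1062g003 had reads on the 3′ exon alone, at 4.83 reads per base in nestling 3 and 1.58 in nestling 2. For these 3 genes the TPM, which is averaged over the whole model, came in nestling 3 from 1 exon only.

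**Figure D4:**
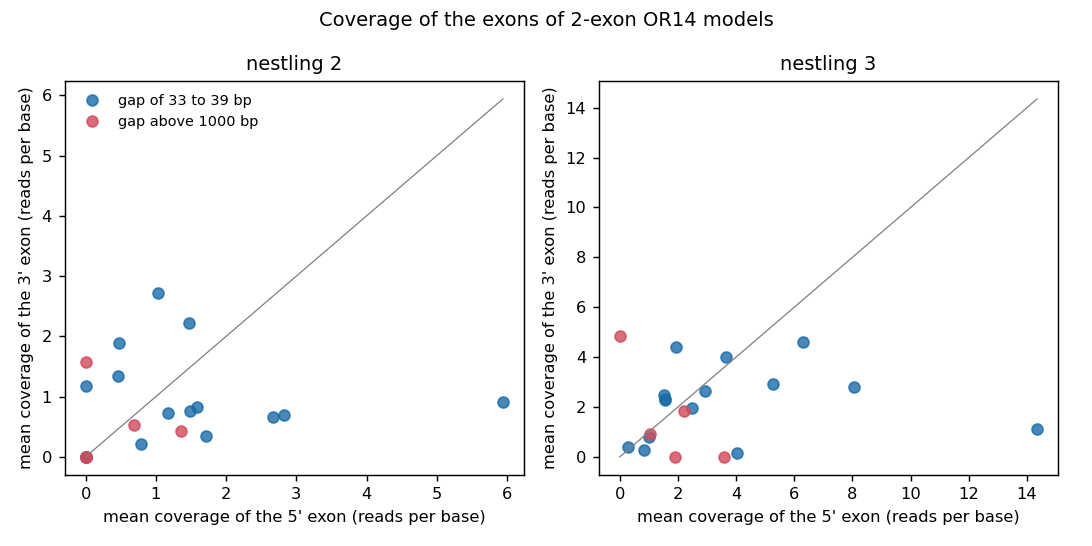
Mean coverage of the 3′ exon against that of the 5′ exon, in reads per base, for the 20 OR14 models with 2 exons in nestling 2 (left) and nestling 3 (right); the line marks equal coverage. Points on an axis have reads on 1 exon only, and the point far to the right in nestling 3 is NheS0529g009 at 14.4 and 1.11.

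Genes with 1 exon had the higher mean in every bird, an order that rested on few genes. Their mean was 0.0895, 0.674 and 1.30 TPM in nestlings 1, 2 and 3 and 0.0590, 0.189 and 0.362 TPM in adults 4, 5 and 6, against 0, 0.341 and 1.17 TPM and 0, 0.0135 and 0.0561 TPM for the genes with 2 exons. The average difference over the birds was 0.182 TPM, and 0.124 TPM without NheS1062g002. In nestling 3 the order turned without that gene, at 1.13 TPM for 1 exon against 1.17 TPM for 2. Without the pair on scaffold 1301 as well, an alternative added after the values were seen, the average difference was 0.0517 TPM and the order also turned in adult 5, at 0.00767 against 0.0135 TPM. In adults 4, 5 and 6, detection held for 3, 5 and 14 of the 26 genes with 1 exon and for 0, 1 and 3 of the 20 genes with 2 exons. The 1-exon group holds the pair on scaffold 1301 and NheS1062g002, the 3 genes with the highest means.

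The 46 genes lay on 34 of the 1415 scaffolds that hold a gene, 27 on the plus and 19 on the minus strand. On 29 of these scaffolds the OR14 members were the only annotated genes, and none of the members shared a scaffold with a listed OR gene of another subfamily. A scaffold of its own, with no other gene, held 22 of the members, and another 22 lay on 10 scaffolds with at least 2 members each. Scaffolds are pieces of a draft assembly, so members on different scaffolds may still be neighbours in the genome, which was not tested. A gene alone on its scaffold is therefore not shown to be isolated. Scaffolds 824 and 971 held 3. Neighbouring members were between 3718 bp (scaffold 1272) and 37300 bp (scaffold 971) apart.

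Members on the same scaffold were detected in largely the same birds, as were members on different scaffolds. Pairs on different scaffolds are not known to be apart in the genome, so they are not a set of non-neighbours. Over the 14 pairs on a shared scaffold, the birds with both genes were a median of 70.8% of the birds with either gene, and over the 1021 pairs on different scaffolds 66.7%. Detection in exactly the same birds held for 5 of the 14 pairs (35.7%) and for 303 of the 1021 (29.7%). The difference of the medians, 4.17 percentage points, was 0 with at least 2 read equivalents required or without adult 6, and 23.3 without adult 5, so 1 bird decided its size.

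How far levels differed between neighbours varied with the scaffold, and no difference in level was computed for pairs on different scaffolds. On scaffold 1062, NheS1062g003 lay 15366 bp from NheS1062g002 on the same strand and was at 0, 0.309 and 1.30 TPM in nestlings 1, 2 and 3 and at 0 in every adult. On scaffold 529, NheS0529g009 was at 1.00 and 3.00 TPM in nestlings 2 and 3 and NheS0529g010, which lies 15866 bp away on the other strand, at 0.152 and 0.169 TPM. On scaffold 1016, with 29300 bp between genes on opposite strands, NheS1016g002 was at 1.29 and 3.31 TPM and NheS1016g001 at 0.597 and 1.78 TPM in nestlings 2 and 3. In each of these 3 scaffolds the same gene was the higher one in nestlings 2 and 3. On scaffolds 971, 1207, 1272 and 1301 the order of the genes changed between these nestlings.

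On scaffold 824 the order of the genes was the same in nestlings 2 and 3 and differed in adult 6, on few reads. NheS0824g001 was at 0.375 and 1.03 TPM in nestlings 2 and 3 and at 0 in the other birds. NheS0824g003, the gene with the longest gap, was at 0.303 and 0.463 TPM in these nestlings and at 0.624 TPM in adult 6, its highest value. These 3 values rested on 5.25, 5.85 and 6.18 read equivalents. NheS0824g002, between them, was at 0.269 and 0.215 TPM in the nestlings and at 0.123 TPM in adult 6, there on 1.17 read equivalents. On scaffold 971, NheS0971g002 was at 0.635 and 2.78 TPM in nestlings 2 and 3 and 0.601 TPM in adult 6. NheS0971g003 was at 0.669, 1.62 and 0.0463 TPM in the same birds. The adult 6 values of NheS0971g002 and NheS0971g003 rested on 1.87 and 0.293 read equivalents.

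The 4 remaining scaffolds apart from 1301 carried pairs of genes. NheS1243g001 and NheS1243g002, 8878 bp apart, were detected in nestlings 2 and 3 alone, the latter at 0.362 and 0.600 TPM. NheS1207g001 and NheS1207g002, 31592 bp apart, were likewise detected in these nestlings alone, at 0.248 and 0.753 TPM and at 0.182 and 0.981 TPM. NheS1327g001 and NheS1327g002, 12931 bp apart, were also detected in adult 6, the former at 0.869 TPM and the latter at 0.0979 TPM. On scaffold 1272, NheS1272g001 was at 0.212 and 0.434 TPM in nestlings 2 and 3 and at 0 in adult 6, where NheS1272g002 was at 0.196 TPM.

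**Figure D5:**
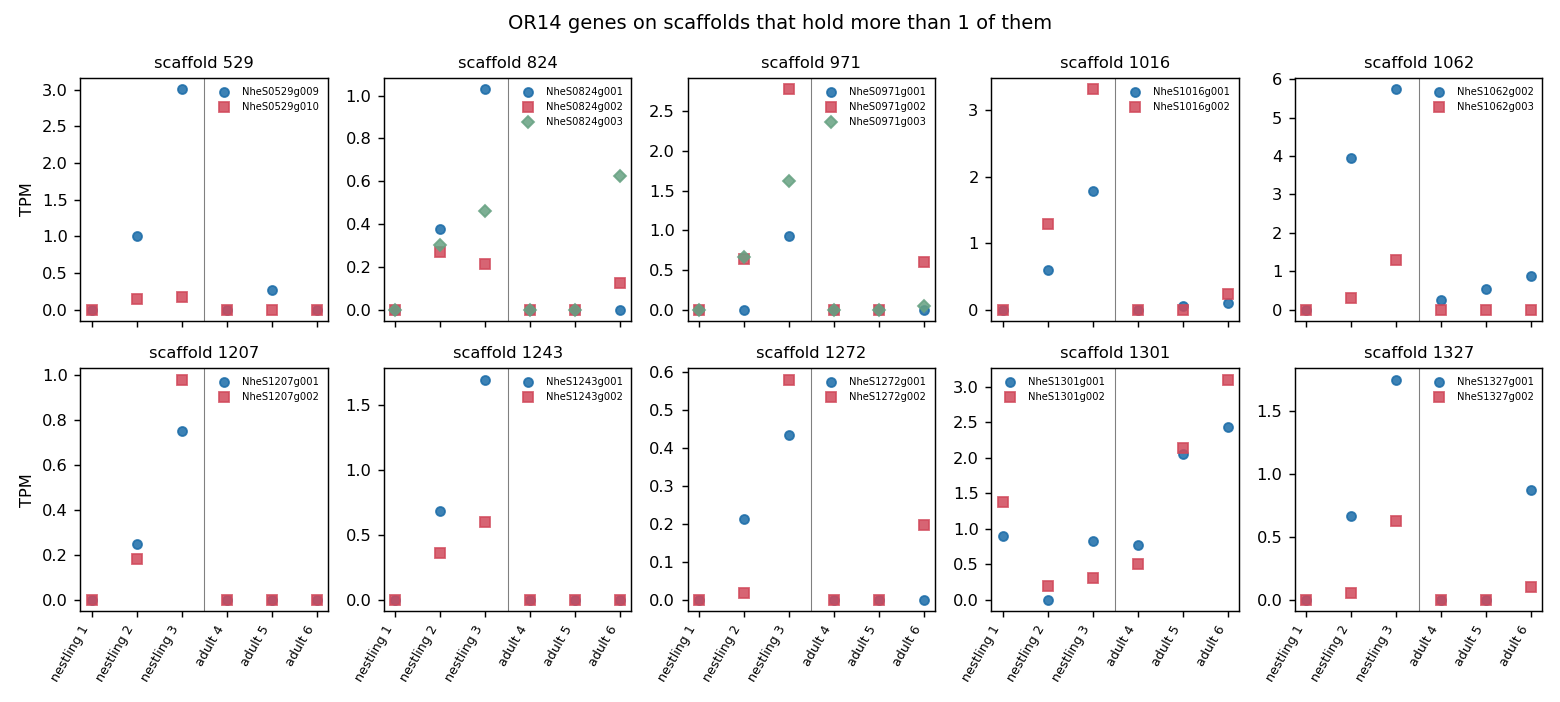
TPM of the 22 OR14 genes that share a scaffold with another member, 1 panel per scaffold, in nestlings 1 to 3 (left of the line) and adults 4 to 6; each symbol is a gene and the vertical scales differ. The pair on scaffold 1301 is highest in adult 6, at 2.43 and 3.10 TPM, while the highest value on each of the other 9 scaffolds is in nestling 3.

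Of the 15 listed OR genes of other subfamilies, nestlings 1, 2 and 3 had 5, 13 and 14 above 0. Adults 4, 5 and 6 had 8, 7 and 10. By this count nestlings 2 and 3 had the most, as for OR14. Nestling 1 had the fewest, a place it shared with adult 4 for OR14. The summed level of these genes had another order. Nestling 3 was highest, but nestling 2, at 2.93 TPM, lay below nestling 1 (3.51 TPM) and adults 5 and 6 (3.08 and 4.67 TPM). Adult 4 was lowest, at 1.85 TPM. At least 5 birds held 5 of these genes and 3 of the 46 OR14 genes, and 4 of the former and 27 of the latter were at 0 in all adults. OR14 made up 39.8%, 89.3% and 81.5% of the summed TPM of listed OR genes in nestlings 1, 2 and 3. The shares in adults 4, 5 and 6 were 45.4%, 62.8% and 69.3%. The mean per gene did not differ beyond the spread between birds, with OR14 higher by 0.0442 TPM on average and lower without nestling 2 or without nestling 3. No test was made of these differences, which are given as a description.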

How the data were processed

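Total RNA of the OE was sequenced as 150 bp read pairs, 1 library per bird. The authors trimmed reads with Trimmomatic, mapped them with HISAT2 (version not given in the sources used here) to their *N. nycticorax* assembly, and quantified the annotated transcripts of each bird with StringTie 2.1.4, where a gene has 1 transcript. The deposited TPM values sum to 1000000 per bird over the annotated transcripts. The deposited coverage is a signal per base, not normalized for depth. Positions are those of the scaffolds in the files, counted from 1. Gene models hold the coding part only, the handling of reads that match several genes and the strand setting are not given in the sources used here, and no sequence was used.

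For the stages, log2(TPM + 0.1) was fitted by limma 3.58.1 (R 4.3.3; lmFit and trended eBayes). Genes whose 6-bird mean reached 0.02 TPM entered the fit, p-values were adjusted over all of these by the Benjamini-Hochberg method, and calls used a threshold of 0.05. The script was tested on simulated data, with known changes placed only in genes at higher levels than most OR14 genes. That run does not measure the power for the OR14 genes. A fold change on this scale understates changes of weak genes. Each bird is a separate animal. Counts, means and shares over members carry no test. Python 3.11.15 with pandas 2.3.3, numpy 2.4.6 and matplotlib 3.10.9 served for tables and plots. Subfamily and the mark Partial came from the study's table, and marker symbols from another. Genes without that mark were called intact. The members and lists were chosen with earlier results of these data known. Genes were named if they shared a scaffold with another member, were highest in a bird, were detected in at least 5 birds or in 1 bird only, were among the 5 with the smallest p, had an adult mean above the nestling mean, or had the longest or shortest model or 1 of the 2 longest gaps. Others are named where a small count or an extreme called for it. Alternatives were other pseudocounts and filters, rescaling by the median ratio, no trend in the variance prior, higher read minimums, longer models only, leaving out the highest gene, and leaving out each bird.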

Additional observations from a re-analysis of the deposited data

How the results depend on the processing

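Of 80 recalculated values, 71 were counted as unchanged and 4 changed sign. The other 5 either moved, or changed unit or count in a way that the spread between birds does not measure. Unchanged meant no change of sign and a shift below 1 SD between birds, or for called genes the same count. For shared detection the spread came from leaving out each bird. These spreads were large beside the results, so the 71 do not measure stability. A fall of the stage difference from 0.484 to 0.165 TPM counted as unchanged. The median log2 fold change of the members, 1.61, became 3.30 when the pseudocount was lowered to 0.01 TPM and 0.44 when it was raised to 1 TPM, and lay between 0.96 and 2.54 when a bird was left out. The number of members called stayed at 0 under every alternative (0 to 0 with a bird left out), with, beside 0 in the fit reported above, 2 members higher in nestlings at an unadjusted p below 0.05 for a pseudocount of 1 TPM (1.28% of all genes), 3 after rescaling (3.44%), 1 with no filter (1.09%) and 32 without nestling 1 (2.84%), the last a count that rests on removing the bird that differed. Leaving out a bird gave differences between stages of 12.8 to 34.3 detected genes and 0.165 to 0.763 TPM. Without the pair on scaffold 1301, an alternative chosen after seeing the data, they were 21.3 genes and 0.562 TPM. As read equivalents per 1000000, summed over the members, another unit, the stage difference in level was 17.5. The members with every nestling above every adult numbered 0 with all birds and 35 without nestling 1. Intact minus partial genes was -0.068 TPM, -0.0801 to -0.0534 with a bird left out, and reversed to 0.067 without NheS1062g002. The difference in shared detection between pairs on the same and on different scaffolds was 4.17 percentage points, ranged from 0 to 23.3 with a bird left out (23.3 without adult 5), and as a Pearson correlation turned to -0.016. OR14 minus other OR genes, 0.0442 TPM, ranged from -0.0228 to 0.0897, reversing to -0.0138 without nestling 2 and to -0.0228 without nestling 3. Genes with 1 exon minus those with 2 exons ranged from 0.152 to 0.206 TPM, and was 0.0517 TPM without NheS1062g002 and the pair on scaffold 1301. The cause of these changes was not tested. No paired analysis was possible because nestlings carry the numbers 1 to 3 and adults 4 to 6, so the stages share none. Depth limits every single-gene value, since 22 of the 46 members had fewer than 10 read equivalents in every bird.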

Other observations

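On the scaffolds of the OR14 genes lay 4 annotated genes outside the list that were at 0 in all 6 birds and are named after their values were seen. NheS0529g008 (285 bp), NheS1013g001 (597 bp), NheS1062g001 (270 bp) and NheS1141g002 (855 bp) have no subfamily in the table used here. That table holds only OR genes reported as expressed, so a gene at 0 in every bird would not be in it. Other unlisted genes on these scaffolds were above 0, such as NheS0529g001 at 292 to 1048 TPM. Of all 13361 genes, 13099 were above 0 in some bird. NheS1062g001 ends 201 bp before NheS1062g002 on the same strand, where NheS1062g002 was the highest OR14 gene by mean TPM. NheS1141g002 has the coding length of 4 of the OR14 members, which does not by itself assign it to a subfamily. It lies 31142 bp from NheS1141g001, which was at 0.797 and 0.866 TPM in nestlings 2 and 3.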
